A study of Mus musculus with 12 samples.

Results

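Mice given an adeno-associated virus of serotype 9 that carries Fst (AAV9-CB::Fst) were compared with mice given the same kind of virus carrying green fluorescent protein (AAV9-CB::GFP). The comparison rests on 6 of the 12 libraries of the series, 3 in each group, chosen by their labels alone. All are total RNA of C57BL/6 dentate gyrus, the hippocampal field where granule cells lie. The GFP group is described as KO with the vector, where KO is knockout of Fst by the series title. The Fst group is described as OE, which the title gives as overexpressing; its genotype is not stated, so whether these mice also lacked their own Fst is not known from the sources used here. In each group libraries M1 and M2 are from males and library F is from a female, by title and by description alike. Libraries are called here GFP M1, GFP M2, GFP F, Fst M1, Fst M2 and Fst F. The labels do not give the age, the route or dose of the virus, the time after it, the meaning of CB or the cells that it reached, and the design text leaves unclear whether a library holds 1 mouse or a pool. The 6 other libraries are 3 wild type (WT) and 3 KO without a vector. They serve to set levels beside those of the vector groups and enter the fits of all 12 libraries. In WT and KO, title and description disagree on sex: F1 is described as male and M2 as female. No label states that libraries come from separate mice, and the p-values below rest on the spread among these libraries alone, which may be technical.

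Fst encodes follistatin, which cells secrete and which traps activins and some related ligands before they reach their receptors. Activins are dimers of inhibin beta subunits. They bind type II receptors, which switch on type I receptors, and these phosphorylate SMAD2 and SMAD3, which enter the nucleus with SMAD4. Among the genes that this route is known to switch on are its own brakes, such as Smad7, Skil and Pmepa1. In the hippocampus, activin A is induced by neuronal activity and is known to act on excitatory synapses, and follistatin is the extracellular counterweight. BMPs, ligands of the same superfamily, signal through other SMADs and through Id genes.

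Library totals ran from 8081824 to 10481922 counts, and 20915 to 22233 genes had a count. The share of mitochondrial ribosomal RNA was 0.563 to 0.596% in Fst F and in both M2 libraries, and 0.00862 to 0.0115% in GFP F and both M1 libraries. GFP F stood apart from the rest: on the first principal component of log CPM, which carries 43.5% of the variance, it lay at 57.1, and the other 5 lay between -35.4 and 11.3. For 22.1% of the 15034 genes tested the level was highest in GFP F, and for 24.9% in Fst M1. Where leaving out GFP F moved a list median printed below by over 1.5 times, the median without it is given too. The tissue label was checked against granule cell markers: of 14 listed, 14 were tested and none was at 0 in any library. The same held for all 6 CA1 and all 9 CA3 and CA2 markers listed. Detection alone thus does not tell dentate gyrus from the neighbouring fields. Prox1, the transcription factor that defines granule cells, stood at 360.2, 324 and 367 CPM (counts scaled to an equal library total) in GFP M1, M2 and F and at 226, 294 and 328 in the Fst libraries. In bulk tissue, fewer cells of a type and less RNA per cell cannot be told apart.

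Fst was nearly silent in the GFP group and abundant in every Fst library. Its counts were 0, 1 and 0 in GFP M1, M2 and F, and 2078, 1870 and 1497 in Fst M1, M2 and F. In CPM the Fst libraries stood at 204, 189 and 166, a mean of 186 ± 19.3 (SD, n = 3), and the groups were far apart. The summed counts, 5445 against 1, give a ratio of 5396 per library total with 95% exact limits of 968 and 213180, for counting error alone. The log2 change was 11.90 ± 0.33 (SE), with an adjusted p of 8.37e-07 by edgeR's quasi-likelihood test, a fold change that depends on the prior count where the GFP libraries are near 0. Without GFP M2, which held the only count of its group, it was 13.78. Its mean level was 48.2 times that of WT, across tables deposited separately. Whether counts of the vector's insert and of the chromosomal gene (chromosome 13, 114452290 to 114458951, minus strand) can be separated is not stated in the labels.

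The activin system itself was next. Of 13 activin ligands and binding proteins tested, Fst included, 5 had a positive and 8 a negative log2 change. The median of the 13 was -0.36, and 0.14 without GFP F. The groups did not overlap for 4 that were higher and 2 that were lower (30.8% and 15.4%), beside 7.97% and 7.75% of all genes. Inhba, the beta A subunit of activin A, stood at 10.5, 17.8 and 90.2 CPM in GFP M1, M2 and F and at 6.97, 10.6 and 36.9 in Fst M1, M2 and F. Within each group it was highest in the F library, and the groups overlapped (log2 change -1.17 ± 1.08, adjusted p = 0.795, edgeR quasi-likelihood). Inhbb, the beta B subunit, was low throughout, at 2.72, 4.09 and 2.48 against 7.07, 6.28 and 4.10 CPM. Inha, the subunit that turns a beta chain into inhibin, an activin antagonist, stood at 56.1, 49.3 and 35.5 CPM in the GFP libraries. In the Fst libraries it stood at 82.5, 78.2 and 71.8 CPM, each above all 3 GFP libraries. Its log2 change was 0.69 ± 0.17 (edgeR adjusted p = 0.244). It rose in the fit that pairs libraries of the same name, called the replicate block here (0.71 ± 0.12, edgeR adjusted p = 0.0488), and by DESeq2 (0.0408). Gdf11, a ligand that follistatin also binds, was at 26.4, 23.5 and 19.6 against 38.3, 46.6 and 36.6 CPM, again without overlap, and passed by DESeq2 (0.0117) but in neither edgeR fit (adjusted p = 0.173, and 0.0533 with the block). Fstl4, a follistatin-like gene, fell with the block: it stood at 24.9, 28.2 and 38.4 CPM in the GFP libraries and 11.9, 17.4 and 19.9 in the Fst libraries, a blocked log2 change of -0.94 ± 0.14 (edgeR adjusted p = 0.0328; 0.244 without the block).

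Among receptors and SMADs, 3 of 14 had an unadjusted p under 0.05 by edgeR, all lower in the Fst group, beside 5.16% of all genes. Acvr1c, the type I receptor ALK7, stood at 40.1, 82.8 and 172 CPM in GFP M1, M2 and F and at 20.0, 15.1 and 44.8 in Fst M1, M2 and F. Each Fst library was below the GFP library of the same name, but Fst F was above GFP M1. It fell with the block (-1.85 ± 0.27, edgeR adjusted p = 0.0475) and with sex as a term (0.0249), and not without either (0.475). Acvr1b, the main activin type I receptor, was at 181, 167 and 153 CPM against 128, 132 and 137 CPM, without overlap. Its log2 change of -0.38 ± 0.12 did not pass (edgeR adjusted p = 0.359, and 0.173 with the block), except in the fit of all 12 libraries (0.0278). Acvr1, a type I receptor of BMPs and activins, was at 48.0, 67.6 and 126 CPM against 38.7, 34.6 and 51.4, with overlap, and its log2 change of -0.99 ± 0.36 (-0.51 without GFP F) did not pass (edgeR adjusted p = 0.45, and 0.0826 with the block). The type II receptor Acvr2a was at 72.5, 51.4 and 59.4 against 51.1, 73.8 and 59.3 CPM (edgeR adjusted p = 0.97). The signal carriers Smad2, Smad3 and Smad4 had log2 changes of 0.08 ± 0.16, -0.08 ± 0.18 and -0.04 ± 0.17. Of the 14 receptors and SMADs tested, 6 had a positive and 8 a negative log2 change, edgeR called 0 without the block and Acvr1c with it, and DESeq2 called 0. Their median was -0.03, and 0.04 without GFP F.

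Genes that SMAD2 and SMAD3 are known to induce were lower in the Fst group for most members, and which of them passed depended on the test. Of 15 tested members, 2 had a positive and 13 a negative log2 change. The median was -0.31, beside 0.0063 over all genes tested, and -0.26 without GFP F. Without the block edgeR called 0 of them, and 7 had an unadjusted p under 0.05, all lower. Over all genes edgeR called 12, or 0.0798%, and 9.51% had such an unadjusted p, 4.34% higher and 5.16% lower. With the block edgeR called 2 lower, Skil and Klf10, where 0.632% of all genes were called lower. DESeq2 called 6 lower, Skil, Klf10, Smad7, Ski, Pmepa1 and Ldlrad4, where it called 1.13% of all genes lower and 0.532% higher. Their groups did not overlap in 7 of the 15, always lower, beside 7.75% of all genes lower and 7.97% higher on the scale of the test (TMM-scaled CPM). Scaled by library totals, those shares were 6.01% lower and 10.5% higher.

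Skil, a co-repressor of SMADs that the pathway induces, stood at 91.4, 96.6 and 208 CPM in GFP M1, M2 and F and at 35.8, 27.5 and 38.4 in Fst M1, M2 and F. GFP F held the highest value, and each Fst library was below each GFP library and below all 6 KO and WT libraries, which ran from 91.3 to 107. Its log2 change was -2.0 ± 0.35 (edgeR adjusted p = 0.158), -1.91 ± 0.20 with the block (0.0118) and -1.51 without GFP F (0.0275). Klf10, a zinc finger gene first described as induced by TGF-beta, stood at 19.1, 19.4 and 53.6 CPM in the GFP libraries and 5.2, 5.67 and 9.30 in the Fst libraries. Here too GFP F was the highest and the groups were apart (log2 change -2.23 ± 0.49, edgeR adjusted p = 0.24, and 0.00661 with the block). KO and WT libraries lay at 17.7 to 22.4 CPM, level with GFP M1 and M2 and above the Fst group. Smad7, the inhibitory SMAD, stood at 17.4, 14.8 and 22.3 CPM against 11.6, 8.0 and 8.97, without overlap (log2 change -0.97 ± 0.22, edgeR adjusted p = 0.211, DESeq2 0.0194). Pmepa1, which sequesters receptor-bound SMADs and is named here after its values were seen, stood at 34.4, 35.0 and 146 CPM against 11.2, 8.51 and 8.75. The level in GFP F was far above every other library. Its log2 change was -2.96 ± 0.70 with all libraries (edgeR adjusted p = 0.3) and -1.90 without GFP F, where it fell (0.0156). Ski, a second co-repressor, had -0.57 ± 0.14 (edgeR adjusted p = 0.235, DESeq2 0.0172). Members that hardly differed included Tsc22d1 at -0.08 ± 0.13, Smurf1 at -0.05 ± 0.12 and Bhlhe40 at -0.05 ± 0.26.

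**Figure D1:**
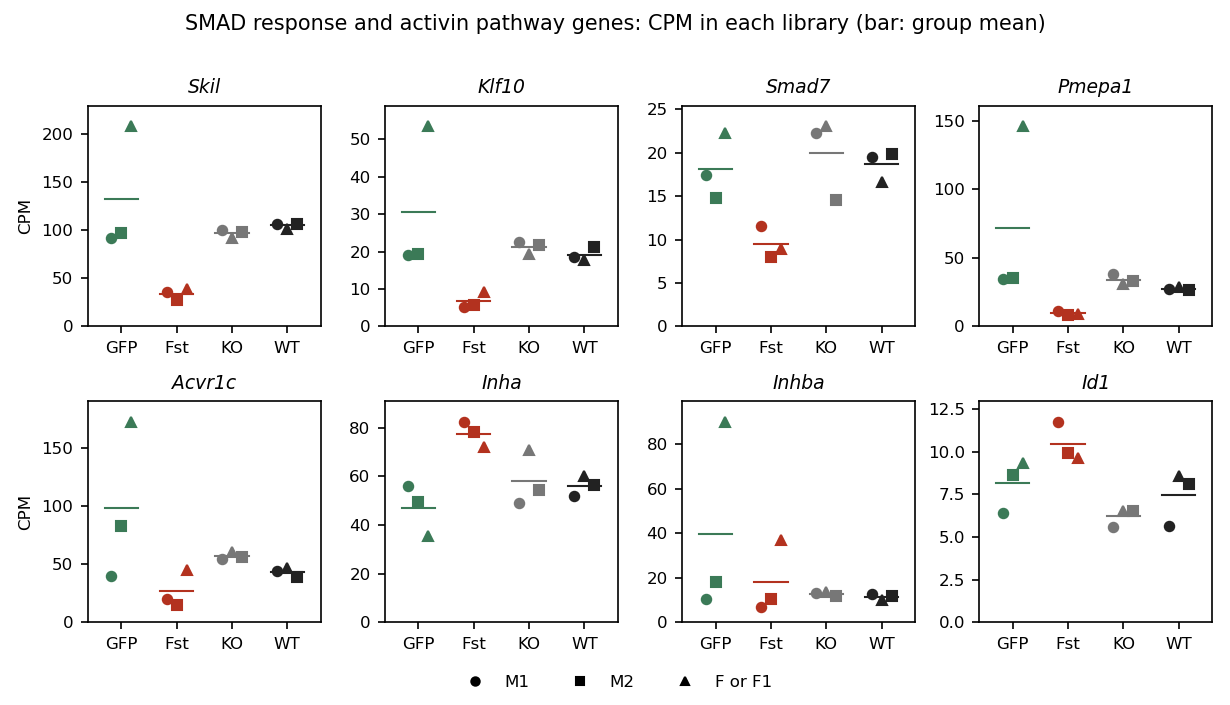
CPM (vertical axis from 0) of 8 genes of the activin and SMAD pathways in each of the 12 libraries, by group (GFP vector, Fst vector, KO, WT); circles are M1, squares M2, triangles F or F1, and horizontal lines are group means. For Skil, Klf10, Smad7 and Pmepa1 the 3 Fst vector libraries lie below all 9 others, and the GFP F triangle is the highest GFP vector point. Symbols follow the titles, and F1 is described as male.

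Genes of the BMP branch gave another picture. Of 9 tested BMP response genes, 5 had a positive and 4 a negative log2 change, with a median of 0.21 that became -0.01 without GFP F. By edgeR 0 were called with or without the block, and DESeq2 called 0. With an unadjusted p under 0.05 by edgeR there was 1, higher, beside 4.34% of all genes. Id4, a helix-loop-helix inhibitor kept high in quiescent stem cells and astrocytes, stood at 114, 113 and 73.2 CPM in the GFP libraries and 158, 153 and 130.0 in the Fst libraries, without overlap (log2 change 0.52 ± 0.18, edgeR adjusted p = 0.421). Id1 was at 6.43, 8.67 and 9.35 against 11.8, 9.92 and 9.63 CPM. Among 19 BMP ligands, receptors and antagonists, 10 had a positive and 9 a negative log2 change, and 0 were called by edgeR in either fit or by DESeq2. By edgeR 2 higher and 2 lower had an unadjusted p under 0.05, beside 4.34% and 5.16% of all genes. The median of the 19 was 0.0001, and -0.10 without GFP F.

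Outside the pathway, 11 genes passed without any pairing, 3 higher and 8 lower, which with Fst makes 0.0266% of all genes called higher and 0.0532% called lower. The groups of all 11 were apart, but no gene kept its call under every alternative. Robo3, a Roundabout receptor known for steering commissural axons (chromosome 9, 37415669 to 37433246, minus strand, GRCm38), stood at 126, 96.5 and 101 CPM in GFP M1, M2 and F. In Fst M1, M2 and F it stood at 319.7, 328 and 402 CPM, every library far above the GFP group. Robo3 rose by 1.66 ± 0.16 on the log2 scale (edgeR adjusted p = 0.0113; 8.41e-18 to 0.0877 over the alternatives). Its relatives were not called: Robo1 had 0.02 ± 0.21 and Robo2 0.15 ± 0.17, and the ligands Slit1 and Slit2 had -0.42 ± 0.27 and 0.03 ± 0.20. Of 23 axon guidance genes tested, Robo3 was the 1 that edgeR called, with or without the block.

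Sept4, a septin of the cytoskeleton (chromosome 11, 87568903 to 87590539, plus strand), stood at 47.0, 41.4 and 44.0 CPM in the GFP libraries and 92.6, 88.4 and 91.7 in the Fst libraries. The libraries of each group lay close together, and KO and WT, at 35.3 to 44.7 CPM, were level with the GFP group. Sept4 rose by 1.01 ± 0.11 (edgeR adjusted p = 0.0268; 2.30e-08 to 0.179 over the alternatives). Trmt9b, a predicted transfer RNA methyltransferase (chromosome 8, 36457548 to 36516570, plus strand), was low, at 4.83, 4.29 and 3.43 CPM against 13.8, 21.5 and 22.3. Fst M1 was the lowest of the Fst libraries and still above the GFP group (log2 change 2.16 ± 0.25, edgeR adjusted p = 0.0268; 1.50e-10 to 0.179 over the alternatives).

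The lower genes included parts of the secretory route and its sugar-modifying enzymes. Sec24d (chromosome 3, 123267455 to 123365641, plus strand) encodes a cargo-binding subunit of the COPII coat of vesicles leaving the endoplasmic reticulum. It stood at 81.2, 55.7 and 79.3 CPM in GFP M1, M2 and F and at 22.9, 23.3 and 20.0 in Fst M1, M2 and F, and in KO and WT at 59.1 to 73.1. The Fst group was thus below every library of the other 3 groups (log2 change -1.74 ± 0.17, edgeR adjusted p = 0.0136; 5.33e-14 to 0.179 over the alternatives). The paralogs Sec24a, Sec24b and Sec24c had log2 changes of -0.27 ± 0.19, 0.01 ± 0.11 and 0.13 ± 0.12, and of 12 COPII genes tested Sec24d was the 1 called.

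Sulfotransferases decorate heparan and chondroitin sulfate chains, and heparan sulfate is known to bind follistatin and many growth factors. Hs6st1, for heparan sulfate (chromosome 1, 36068400 to 36106446, plus strand), stood at 68.1, 66.1 and 75.0 CPM in the GFP libraries and 25.8, 31.2 and 35.2 in the Fst libraries. KO and WT lay between the vector groups, at 40.9 to 51.5 (log2 change -1.22 ± 0.14, edgeR adjusted p = 0.0268; 8.96e-09 to 0.179 over the alternatives). Chst15, for chondroitin sulfate (chromosome 7, 132235780 to 132317228, minus strand), stood at 91.3, 93.8 and 106 CPM against 53.7, 41.0 and 47.6 (log2 change -1.07 ± 0.14, edgeR adjusted p = 0.0428; 3.53e-07 to 0.212 over the alternatives). Here KO and WT, at 85.8 to 98.1 CPM, were level with the GFP group. Chst1, a keratan sulfate sulfotransferase, fell with the block, from 512 ± 72.6 to 256 ± 37.6 CPM (SD, n = 3 each; blocked log2 change -1.04 ± 0.11, edgeR adjusted p = 0.0111). Among 23 such enzymes tested, 9 had a positive and 14 a negative log2 change, with a median of -0.20 (-0.12 without GFP F). Chst2, Chst8 and Chst10 were higher in every Fst library than in any GFP library without passing the test. Of the 23, 3 were apart and higher and 3 apart and lower (13% each), beside 7.97% and 7.75% of all genes.

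A pair of mitochondrial transporters fell. Abcb10 (chromosome 8, 123952459 to 123983122, minus strand), an inner membrane transporter tied to haem synthesis, stood at 46.4, 40.0 and 67.4 CPM in the GFP libraries. In the Fst libraries it stood at 15.0, 11.2 and 15.7 CPM, and KO and WT lay between, at 31.9 to 38.9 (log2 change -1.91 ± 0.23, edgeR adjusted p = 0.0282; 6.66e-11 to 0.24 over the alternatives). Slc25a42 (chromosome 8, 70184340 to 70212305, minus strand), the carrier of coenzyme A, stood at 113, 92.8 and 113 CPM against 50.5, 47.2 and 36.3 (log2 change -1.28 ± 0.16, edgeR adjusted p = 0.0298; 2.03e-09 to 0.189 over the alternatives). They were 2 of 21 mitochondrial transporters and carriers tested, whose median was 0.01, with 11 higher and 10 lower.

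The remaining lower genes act in transcription, sorting and cell shape. Nrip2, a nuclear receptor interacting protein (chromosome 6, 128399296 to 128416427, plus strand), stood at 50.7, 43.1 and 56.3 CPM in GFP M1, M2 and F and at 12.6, 15.6 and 14.1 in Fst M1, M2 and F. It had the smallest p after Fst (log2 change -1.87 ± 0.16, edgeR adjusted p = 0.00666; 2.14e-17 to 0.0738 over the alternatives), and KO and WT lay between the vector groups, at 30.8 to 37.7. Vps37b, a subunit of the ESCRT-I sorting complex (chromosome 5, 124004641 to 124032270, minus strand), stood at 40.0, 35.1 and 42.6 CPM against 16.8, 17.5 and 11.7 (log2 change -1.39 ± 0.18, edgeR adjusted p = 0.0442; 8.75e-08 to 0.179 over the alternatives). Its relatives Vps37a and Vps37c had -0.07 ± 0.12 and -0.04 ± 0.15. Ripor2, an inhibitor of the GTPase RhoA (chromosome 13, 24582189 to 24733816, plus strand), stood at 67.4, 70.3 and 81.4 CPM against 36.3, 37.7 and 31.9 (log2 change -1.09 ± 0.13, edgeR adjusted p = 0.0282; 8.99e-08 to 0.179 over the alternatives). How strand was handled is not given, so counts of overlapping genes cannot be told apart: Vps37b overlaps Hip1r and Nrip2 overlaps Itfg2 on the opposite strand, Ripor2 overlaps the long noncoding C530050E15Rik, and Chst15 overlaps Fgfr2 on the same strand. Summed counts of Hip1r were 2116 in the GFP and 1620 in the Fst group.

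**Figure D2:**
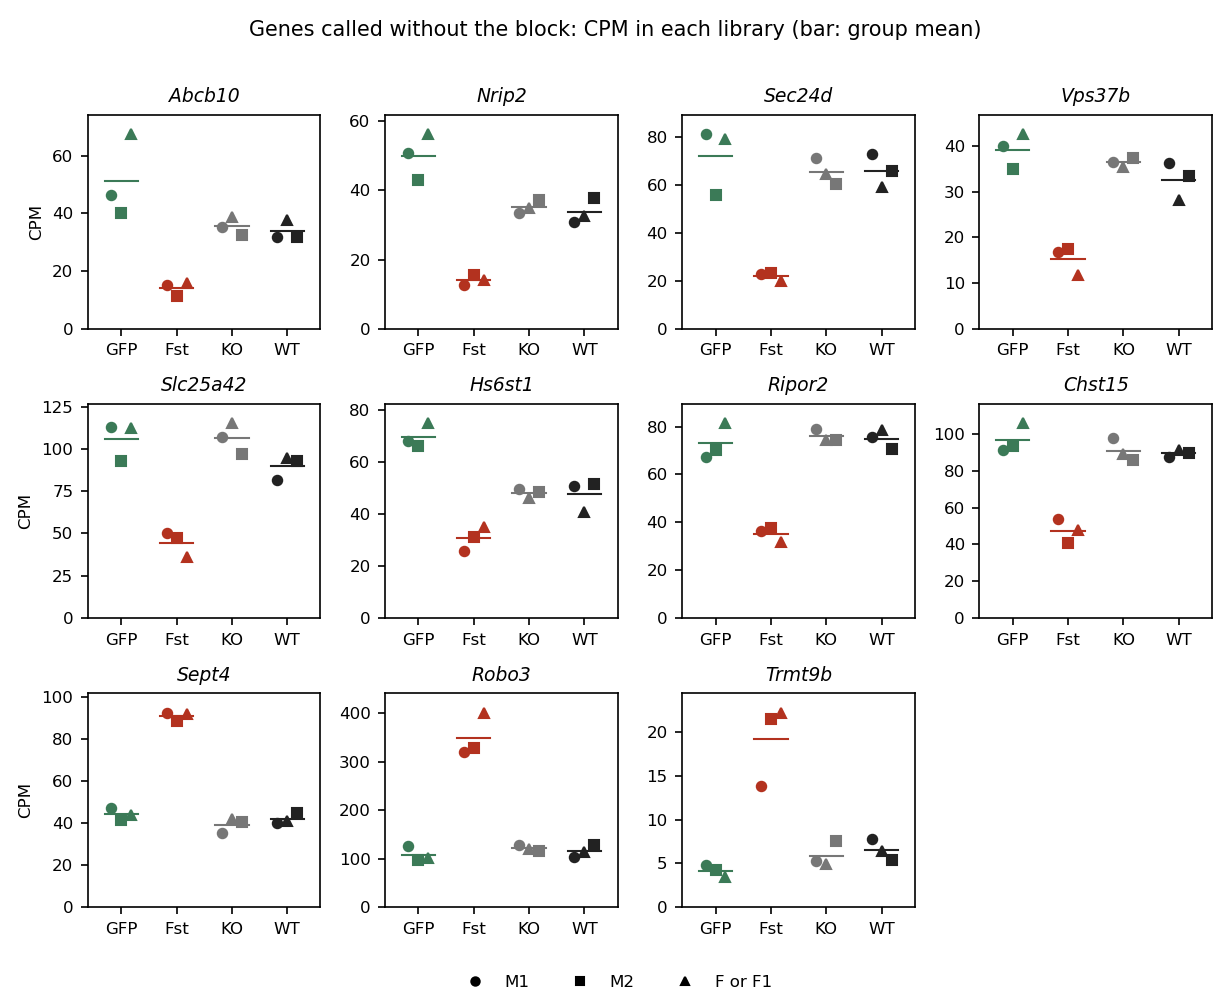
CPM (vertical axis from 0) of the 11 genes called without the block besides Fst in each of the 12 libraries, by group; symbols mark M1, M2 and F or F1, and horizontal lines are group means. In each panel the 3 Fst vector libraries lie beyond all 9 others, below them for 8 genes and above them for Sept4, Robo3 and Trmt9b. Symbols follow the titles, and F1 is described as male.

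Left out 1 at a time, single libraries decided many of these calls. Of the 11 genes, 10 were still called without GFP M1 (all but Vps37b), 2 without GFP M2 (Nrip2 and Sec24d) and 4 without GFP F (Nrip2, Robo3, Sec24d and Abcb10). Without Fst F there were 2 (Nrip2 and Robo3), and without Fst M1 or without Fst M2 there were 0, with adjusted p of 0.0619 to 0.24 and 0.0738 to 0.212 by edgeR. With the mitochondrial and other ribosomal RNA share of each library as a term, 2 remained called (Nrip2 and Sec24d), and the other 9 had an adjusted p of 0.0513 to 0.153. The part of that share in the calls was not tested further.

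Deviations from the group means correlated between libraries of the same name, at 0.3251 (M1), 0.1376 (M2) and 0.3896 (F). GFP M1 and Fst M2, of unlike name, reached 0.1193, close to the M2 value. The fit with the replicate block called 141 genes in place of 12. Of them 46 were higher (0.306% of all genes tested) and 95 lower (0.632%), 0.938% in all. All 12 were among them. The groups were apart for 119 of the 141, DESeq2 also called 113, sex as a term called 101, and 58 were highest of all 6 libraries in GFP F. Over all genes tested, 7.97% were apart and higher and 7.75% apart and lower. DESeq2 called 1.66% of them, sex as a term called 132 of 15034, and 22.1% were highest in GFP F. The 141 were chosen on these same libraries, so their counts are a description and not independent support. The pairing is stated by no label. It was read from the same libraries that the block then tests, so calls made only with the block depend on that choice.

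**Figure D3:**
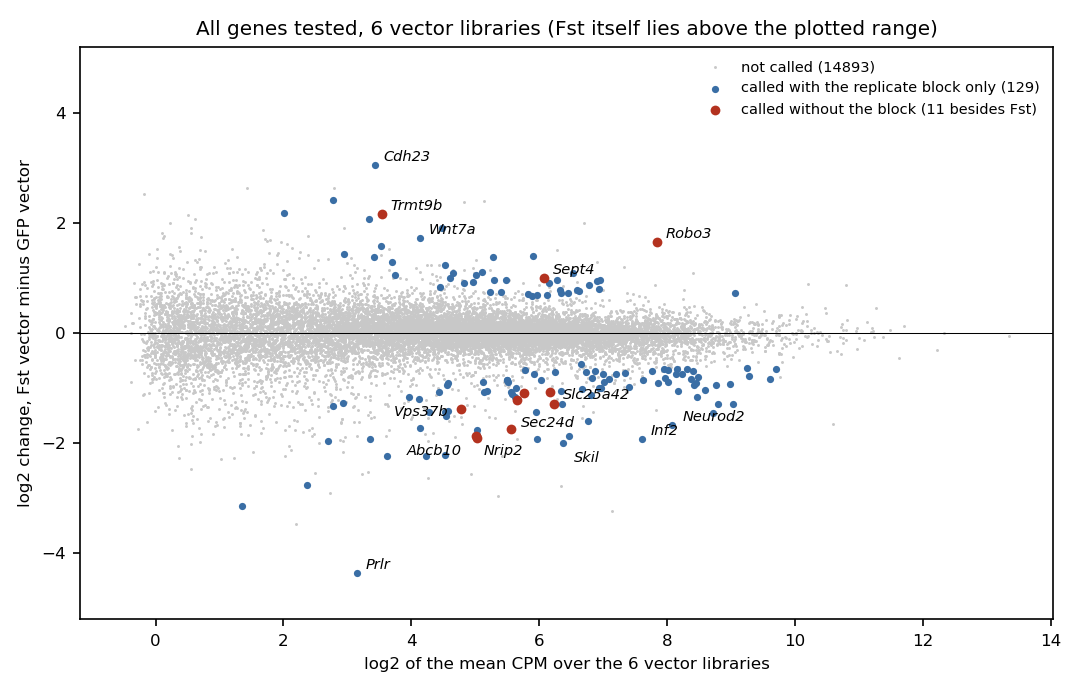
Log2 change between the vector groups (vertical axis, Fst vector minus GFP vector) against the log2 of the mean CPM over the 6 libraries (horizontal axis) for the genes tested. Grey points are the 14893 genes not called, blue points the 129 called with the replicate block only, and red points the 11 called without it besides Fst; blue points lie above and below 0, more of them below.

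Several of the lower genes in the paired fit shape neuronal excitability and synapses. Grm2, a presynaptic metabotropic glutamate receptor of mossy fibres, stood at 290.0, 269.6 and 345 CPM in the GFP libraries and 162, 141 and 188 in the Fst libraries. No Fst library reached the lowest GFP library (blocked log2 change -0.92 ± 0.10, edgeR adjusted p = 0.0111; 0.109 without the block). Cnih3, an auxiliary subunit of AMPA receptors, stood at 139, 115 and 158 CPM against 55.3, 29.9 and 29.4 (blocked -1.93 ± 0.20, 0.0118); it and Syt13 (-0.95 ± 0.10), of the synaptotagmin family, are named after their values were seen. Kcnj6, a potassium channel opened by G proteins, had -1.12 ± 0.17 (0.0313) and Cacna1h, a T-type calcium channel, -0.79 ± 0.11 (0.0286). Oprd1, the delta opioid receptor, was lower in Fst M1, M2 and F (4.81, 7.70 and 12.5 CPM) than in the GFP libraries (15.0, 27.4 and 38.1), with a blocked log2 change of -1.73 ± 0.15 (edgeR adjusted p = 0.00661). As lists these genes moved little: the median was -0.11 over 22 glutamate receptor genes, -0.12 over 16 calcium and sodium channels, -0.06 over 27 potassium channels, -0.05 over 12 GABA-A subunits and -0.05 over 26 genes of vesicle release. Without the block edgeR called 0 members of these 5 lists. With an unadjusted p under 0.05 there were 0, 1, 2, 1 and 2 higher and 3, 4, 2, 2 and 2 lower, in the same order. Over all genes 4.34% were higher and 5.16% lower at such a p. With the block only Grm2, Cacna1h and Kcnj6 passed, all lower, where 0.306% of all genes were called higher and 0.632% lower. DESeq2 called 1 higher (Scn4b, a sodium channel beta subunit) and 7 lower, where it called 0.532% of all genes higher and 1.13% lower.

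Actin regulators, adhesion genes and the transcription factor Neurod2 also fell with the block. Inf2, a formin that builds and severs actin filaments, stood at 296, 189 and 439.6 CPM in GFP M1, M2 and F and at 91.8, 51.4 and 106 in Fst M1, M2 and F. GFP F and Fst F were the highest of their groups, and M2 the lowest in both. Its blocked log2 change was -1.91 ± 0.12 (edgeR adjusted p = 0.00243), the smallest p after Fst in that fit, and -1.93 ± 0.38 (0.194) without the block. Wipf3, an actin-binding protein of neurons, went from 740.4 ± 235 to 309 ± 61.9 CPM (SD, n = 3 each; blocked -1.27 ± 0.11, 0.00661). Neurod2, a helix-loop-helix factor of maturing excitatory neurons, stood at 507, 293 and 423 CPM against 189, 109 and 96.6. The highest Fst library was well under the lowest GFP library (blocked log2 change -1.70 ± 0.16, edgeR adjusted p = 0.00661; 0.158 without the block). Its relative Neurod1, a factor of newborn granule neurons, leaned the other way without passing (0.64 ± 0.25, edgeR adjusted p = 0.482). Over 17 such transcription factors the median was -0.06 (-0.04 without GFP F), and Neurod2 was the 1 called, with the block. Npnt, which encodes the integrin ligand nephronectin, had -1.26 ± 0.12 (0.00851) and Dsp, the desmosomal desmoplakin, -1.48 ± 0.20 (0.0286).

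A cytokine receptor and a hormone receptor fell with the block. Il1r1, the interleukin-1 receptor, which granule cells are known to express strongly, stood at 57.4, 27.8 and 28.8 CPM in the GFP libraries and 11.9, 7.39 and 5.65 in the Fst libraries. Every Fst library was under the lowest GFP library, and KO and WT ran from 55.3 to 60.4 (blocked log2 change -2.21 ± 0.16, edgeR adjusted p = 0.00349; 0.138 without the block). Prlr, the prolactin receptor, a gene also abundant in choroid plexus, stood at 1.24, 12.4 and 37.0 CPM against 0.0982, 0.506 and 1.99. GFP F held most of it, Fst F was above GFP M1, and the blocked log2 change of -4.32 ± 0.29 (edgeR adjusted p = 0.00285) became -4.36 ± 1.43 (0.445) without the block. Choroid plexus markers, of which 4 of 7 were tested, summed to 26.4, 26.4 and 58.3 CPM in GFP M1, M2 and F and 18.3, 18.3 and 11.2 in Fst M1, M2 and F. Their part in the value of Prlr was not tested. Trim2, a ubiquitin ligase of neurons, stood at 430.2, 424 and 599 CPM against 189, 203 and 274 (blocked -1.16 ± 0.10, 0.00659). Fibcd1, Fam163b and Mamld1 had blocked log2 changes of -2.26 ± 0.20, -1.32 ± 0.13 and -1.0 ± 0.11 (adjusted p 0.00661, 0.00864 and 0.0111).

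Genes that rose with the block included a Wnt ligand, enzymes of amino acid and phosphoenolpyruvate metabolism and immediate-early genes. Wnt7a, a Wnt ligand that granule cells use in synapse formation and progenitor upkeep, stood at 10.3, 8.86 and 5.06 CPM in GFP M1, M2 and F and at 31.0, 30.3 and 20.0 in Fst M1, M2 and F. Every Fst library was above every GFP library, and F was the lowest of each group (blocked log2 change 1.74 ± 0.16, edgeR adjusted p = 0.00661; 0.102 without the block). Fzd8, a Wnt receptor, fell (-1.25 ± 0.21, 0.0485), and of 21 Wnt genes tested these 2 were called with the block and 0 without it, 4 higher and 4 lower having an unadjusted p under 0.05 by edgeR and 1 and 2 being called by DESeq2. At such an unadjusted p, 4.34% of all genes were higher and 5.16% lower. Cdh23, a cadherin of hair cell tip links, was low in the GFP libraries (1.73, 1.85 and 3.15 CPM) and higher in the Fst libraries (9.72, 17.2 and 31.3). Every Fst library was above the GFP group (blocked log2 change 3.02 ± 0.24, edgeR adjusted p = 0.00538; 0.102 without the block). Phgdh, the first enzyme of serine synthesis, stood at 63.0, 51.4 and 40.1 CPM against 130.4, 104 and 74.5 (blocked 0.95 ± 0.10, 0.0111), and Pck2, the mitochondrial phosphoenolpyruvate carboxykinase, at 16.0, 16.8 and 7.82 against 37.4, 37.1 and 23.5 (blocked 1.27 ± 0.15, 0.0131). For both, F was the lowest library of each group. Chd7, a chromatin remodeller, stood at 38.6, 34.7 and 22.8 CPM against 75.6, 107 and 77.7 (blocked 1.42 ± 0.16, 0.0118). The others of smallest p were Fxyd6, a regulator of the sodium pump, at 1.08 ± 0.11, Igfbp4, an IGF binding protein, at 1.04 ± 0.12, the lipid transporter Abca8a at 1.97 ± 0.24, and the copine Cpne5 at 1.1 ± 0.14. With them came Ngb, which encodes neuroglobin, at 2.25 ± 0.30, the actin capping regulator Carmil3 at 0.72 ± 0.10 and Epop at 1.57 ± 0.20. Their blocked adjusted p lay between 0.00862 and 0.0227 by edgeR; Ngb and Epop overlapped between the groups, and the others did not.

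Immediate-early genes, switched on within minutes of neuronal firing, had a median log2 change of 0.26, with 12 of 18 higher. Of the 18, 4 had an unadjusted p under 0.05 by edgeR, all higher, beside 4.34% of all genes. Beside them, 13 heat shock and dissection stress genes had a median of 0.04 (0.26 without GFP F), 7 being higher. Of the 13, 3 were apart between the groups, all higher, beside 7.97% of all genes. At an unadjusted p under 0.05 by edgeR there were 2, both higher, beside 4.34% of all genes. By edgeR 0 of those 13 were called in either fit, DESeq2 called 0, and their part in the immediate-early values was not tested. Nr4a3 stood at 23.3, 23.9 and 17.1 CPM in the GFP libraries and 34.6, 58.7 and 48.5 in the Fst libraries, and Btg2 at 35.4, 24.9 and 18.6 against 56.7, 58.7 and 41.6. Neither overlapped, and both rose with the block (1.09 ± 0.19 and 0.99 ± 0.14, edgeR adjusted p = 0.0487 and 0.0288) and by DESeq2 (9.35e-04 and 0.0172), but not in edgeR without the block (0.141 and 0.251). For Nr4a3, KO and WT, at 37.1 to 59.4 CPM, were above the GFP group and level with the Fst group, while for Btg2, at 28.3 to 35.5 CPM, they were level with the GFP group. Fos, Arc and Egr1, named after their values were seen, had log2 changes of 0.14 ± 0.50, -0.24 ± 0.81 and 0.46 ± 0.35.

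Promoters of 6 of these genes are shown to set rises and falls from each fit beside the SMAD motif: Robo3, Sec24d, Hs6st1 and Abcb10 were called without the block, Wnt7a and Neurod2 with it. Each is the 250 bases before the start site on the gene's own strand, from RefSeq on GRCm38.p6; Robo3 lies at chr9:37433176-37433425, minus strand, Sec24d at chr3:123267246-123267495, plus strand, Hs6st1 at chr1:36068150-36068399, plus strand, Abcb10 at chr8:123983123-123983372, minus strand, Wnt7a at chr6:91411354-91411603, minus strand and Neurod2 at chr11:98329646-98329895, minus strand. Capitals mark CAGAC, the SMAD-binding box, or its reverse complement GTCTG.
Robo3: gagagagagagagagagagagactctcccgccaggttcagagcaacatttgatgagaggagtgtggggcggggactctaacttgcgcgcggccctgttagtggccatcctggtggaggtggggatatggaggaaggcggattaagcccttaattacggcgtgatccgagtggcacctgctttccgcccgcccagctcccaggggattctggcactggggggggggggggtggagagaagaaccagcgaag
Sec24d: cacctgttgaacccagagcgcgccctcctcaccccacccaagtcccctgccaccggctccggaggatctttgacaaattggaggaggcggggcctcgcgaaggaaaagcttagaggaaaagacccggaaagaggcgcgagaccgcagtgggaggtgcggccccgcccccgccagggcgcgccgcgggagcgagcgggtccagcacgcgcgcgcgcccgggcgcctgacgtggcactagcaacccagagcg
Hs6st1: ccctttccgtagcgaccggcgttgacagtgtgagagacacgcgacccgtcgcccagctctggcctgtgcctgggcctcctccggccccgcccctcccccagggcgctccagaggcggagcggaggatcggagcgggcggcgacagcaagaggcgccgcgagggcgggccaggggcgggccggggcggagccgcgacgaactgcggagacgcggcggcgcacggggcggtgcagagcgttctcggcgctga
Abcb10: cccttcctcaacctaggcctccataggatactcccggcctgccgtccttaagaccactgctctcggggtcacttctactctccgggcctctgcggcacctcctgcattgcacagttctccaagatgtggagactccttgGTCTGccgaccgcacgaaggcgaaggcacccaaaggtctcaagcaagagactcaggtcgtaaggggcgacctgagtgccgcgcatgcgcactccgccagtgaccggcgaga
Wnt7a: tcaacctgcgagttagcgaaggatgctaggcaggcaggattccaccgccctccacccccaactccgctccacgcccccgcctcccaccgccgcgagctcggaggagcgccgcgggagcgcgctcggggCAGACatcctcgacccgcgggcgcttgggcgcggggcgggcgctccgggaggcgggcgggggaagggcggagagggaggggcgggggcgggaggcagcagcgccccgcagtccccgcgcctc
Neurod2: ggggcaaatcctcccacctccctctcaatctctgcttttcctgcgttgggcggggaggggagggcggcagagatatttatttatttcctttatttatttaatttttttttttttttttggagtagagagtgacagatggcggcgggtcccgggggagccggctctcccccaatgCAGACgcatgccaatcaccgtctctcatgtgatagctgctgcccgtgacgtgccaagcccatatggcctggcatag
The windows of Robo3, Sec24d and Hs6st1 held no match and those of Abcb10, Wnt7a and Neurod2 held 1 each. Over all 27025 promoter windows of this length in the table, 45.8% held a match on either strand. Of the genes called without the block besides Fst, 8 of 11 had an entry and 5 of these held a match (62.5%). Of those called with the block, 33 of 74 lower genes with an entry (44.6%) and 18 of 35 higher genes (51.4%) did, shares near that of all promoters. The letters are a description of these windows, not sites of binding.

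GFP F, the library that stood apart, carried the highest levels of reactive astrocyte, interferon and activity-induced genes, and the medians of these lists moved toward or past 0 without it. Gfap, the intermediate filament of astrocytes, stood at 566, 1555 and 4864 CPM in GFP M1, M2 and F and at 613, 620.0 and 1033 in Fst M1, M2 and F. GFP M1 was below all 3 Fst libraries, GFP M2 above them and GFP F far above (log2 change -1.66 ± 0.80, edgeR adjusted p = 0.613; -0.52 without GFP F). Gfap is named after its values were seen. All 10 tested markers of reactive astrocytes had a negative log2 change, with a median of -1.54, or -0.19 without GFP F. Each of the 10 was highest in GFP F, and 0 were called by edgeR in either fit. By edgeR 2 had an unadjusted p under 0.05, both lower, beside 5.16% of all genes. The groups of 2 were apart (20%), both lower, beside 7.75% of all genes, and DESeq2 called 1. Their summed level was 726, 1925 and 6204 CPM in the GFP libraries and 759, 781 and 1231 in the Fst libraries, and 491 to 583 in KO and WT. That 1 was Serpina3n, an acute-phase protease inhibitor, at 54.9, 128 and 575 CPM against 24.7, 24.3 and 33.9, the groups being apart even without GFP F (log2 change -1.76, edgeR adjusted p = 0.241; 0.43 with it). Of 12 general astrocyte markers 7 were higher, with a median of 0.07.

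Interferon-induced genes did likewise. All 16 tested members were lower, with a median of -1.16 (-0.16 without GFP F), and all 16 were highest in GFP F. Summed, they stood at 158, 139.9 and 402 CPM in the GFP libraries and 130.3, 136 and 130.3 in the Fst libraries. By edgeR 0 passed in either fit and 7 had an unadjusted p under 0.05, all lower, beside 5.16% of all genes. The groups of 5 were apart (31.2%), all lower, beside 7.75% of all genes. DESeq2 called 4 lower (Irf7, Bst2, Ifit1 and Oasl2), beside 1.13% of all genes. Irf7, the factor that amplifies the interferon response, stood at 5.32, 3.12 and 20.2 CPM against 1.57, 2.03 and 1.44; GFP M1 and M2 were also above the Fst group, and the log2 change without GFP F was -1.35 (edgeR adjusted p = 0.369). Antigen presentation genes had a median of -0.24 that became 0.04 without GFP F.

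Slower activity-induced genes, which encode secreted and synaptic proteins, were highest in the F libraries. Of 23, 5 had a positive and 18 a negative log2 change, 19 were highest in GFP F, and the median of -0.37 turned to 0.17 without it. Their sum was 1729, 2623 and 4809 CPM in GFP M1, M2 and F and 2072, 2052 and 3574 in Fst M1, M2 and F, beside 1556 to 1719.7 in KO and WT. Bdnf, the neurotrophin, stood at 73.4, 125 and 208 against 75.6, 76.1 and 192 CPM, and Penk, which encodes enkephalin, at 22.4, 252 and 479 against 58.5, 52.6 and 519; both are named after their values were seen. The F libraries of both groups were high for each, and Penk was also high in GFP M2. Cort, which encodes cortistatin, rose with the block (1.46 ± 0.22, edgeR adjusted p = 0.0335), and with sex as a term (0.0394). The unpaired edgeR fit called 0 of the 23, with 1 higher and 2 lower at an unadjusted p under 0.05, and DESeq2 called 0. At such an unadjusted p, 4.34% of all genes were higher and 5.16% lower.

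**Figure D4:**
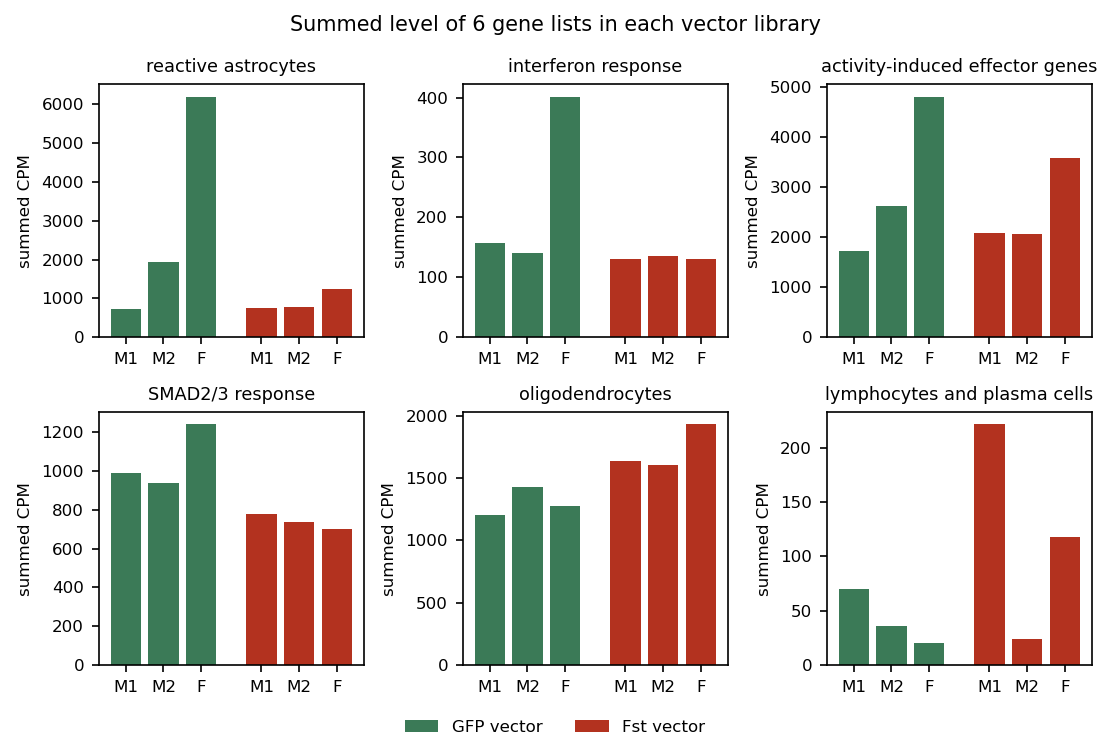
Summed CPM (vertical axes from 0) of the members of 6 gene lists in each vector library; green bars are GFP vector and red bars Fst vector libraries M1, M2 and F. GFP F holds the tallest bar for reactive astrocytes, interferon response, activity-induced effector and SMAD2/3 response genes, while all 3 Fst vector bars are the lower ones for SMAD2/3 response and the taller ones for oligodendrocytes.

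Summed, the SMAD2/3 response list stood at 990.0, 939.8 and 1241 CPM in GFP M1, M2 and F and at 776, 738 and 701 in Fst M1, M2 and F, with KO and WT at 908 to 1003. All 3 Fst libraries were below all 9 others. The same held for the sums of the sulfotransferase, neuronal transcription factor and choroid plexus lists. It also held for glutamate receptors, for calcium and sodium channels and, by a narrow margin, for vesicle release genes. Of its 15 tested members, 9 were highest in GFP F, beside 22.1% of all genes. On the M libraries alone the median log2 change of the SMAD2/3 response list was -0.42, beside -0.26 for the interferon list and -0.25 for reactive astrocytes. It was -0.31 for activity-induced genes, -0.30 for glucocorticoid response and -0.29 for mature granule cells. Over all 46 lists it ran from -0.71 (meningeal fibroblasts) to 0.90 (lymphocytes and plasma cells). The difference between lists was not tested.

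Markers of other cell types were set beside these changes. Oligodendrocyte genes were higher for 8 of 10 members, with a median of 0.36 (0.28 without GFP F). Myelin basic protein, Mbp, stood at 610.4, 670.4 and 578 CPM in the GFP libraries and 826, 789 and 901 in the Fst libraries, and did not pass (log2 change 0.40 ± 0.13, edgeR adjusted p = 0.377). The list summed to 1201, 1427 and 1279 CPM against 1639, 1606 and 1932, without overlap, and to 990.4 to 1079 in KO and WT. By edgeR 0 of the 10 were called in either fit, and DESeq2 called 0. By edgeR 4 had an unadjusted p under 0.05, all higher, beside 4.34% of all genes. The groups of 5 were apart, all higher, beside 7.97% of all genes. All 8 markers of oligodendrocyte precursors were higher, with a median of 0.19 and 0 called by edgeR or DESeq2. Of these 8, 1 had an unadjusted p under 0.05 by edgeR, higher, beside 4.34% of all genes. Microglia and macrophage genes were lower for 12 of 13 members, with a median of -0.28 (-0.17 without GFP F, in which 8 of them were highest). Of the 13, 0 were called by edgeR or DESeq2. By edgeR 4 had an unadjusted p under 0.05, all lower, beside 5.16% of all genes. The groups of 1 were apart (7.69%), lower, beside 7.75% of all genes. The part of these cell types in the called genes was not tested.

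Transcripts of lymphocytes and plasma cells varied between libraries of a group. The list summed to 69.8, 35.5 and 20.1 CPM in GFP M1, M2 and F and 222, 24.1 and 118 in Fst M1, M2 and F, with KO and WT at 13.3 to 21; 5 of its 15 members were tested, and 10 were at 0 in at least 1 library. Igkc, an immunoglobulin light chain, stood at 24.7, 1.85 and 1.14 against 99.9, 6.89 and 35.6 CPM, and Jchain, which joins secreted antibodies, at 3.59, 1.17 and 1.72 against 21.6, 2.13 and 10.8. Fst M1 and Fst F were the highest for Jchain and Fst M2 lay within the range of the GFP libraries, and Jchain was called with the block (2.18 ± 0.36, edgeR adjusted p = 0.0475). Granule cell markers were mixed, 6 higher and 8 lower with a median of -0.07 (-0.17 without GFP F and -0.29 on the M libraries alone): Npnt and Dsp fell with the block, Calb1 had 0.18 ± 0.52 and Trpc6 1.28 ± 0.28 (edgeR adjusted p = 0.198, DESeq2 3.19e-04). Newborn neuron and dividing cell lists had medians of 0.02 over 8 and 0.16 over 13 members, which were 0.24 and 0.25 without GFP F. Interneuron genes had 0.12 over 13, Lamp5 being called with the block (0.97 ± 0.16, 0.0475). Of CA3 and CA2 genes, Necab2 rose (0.94 ± 0.15, 0.0465) and Fam163b fell with the block. Markers of neocortex, striatum and thalamus had medians of 0.04, 0.24 and 0.12, or 0.08, 0.21 and 0.29 without GFP F.

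**Figure D5:**
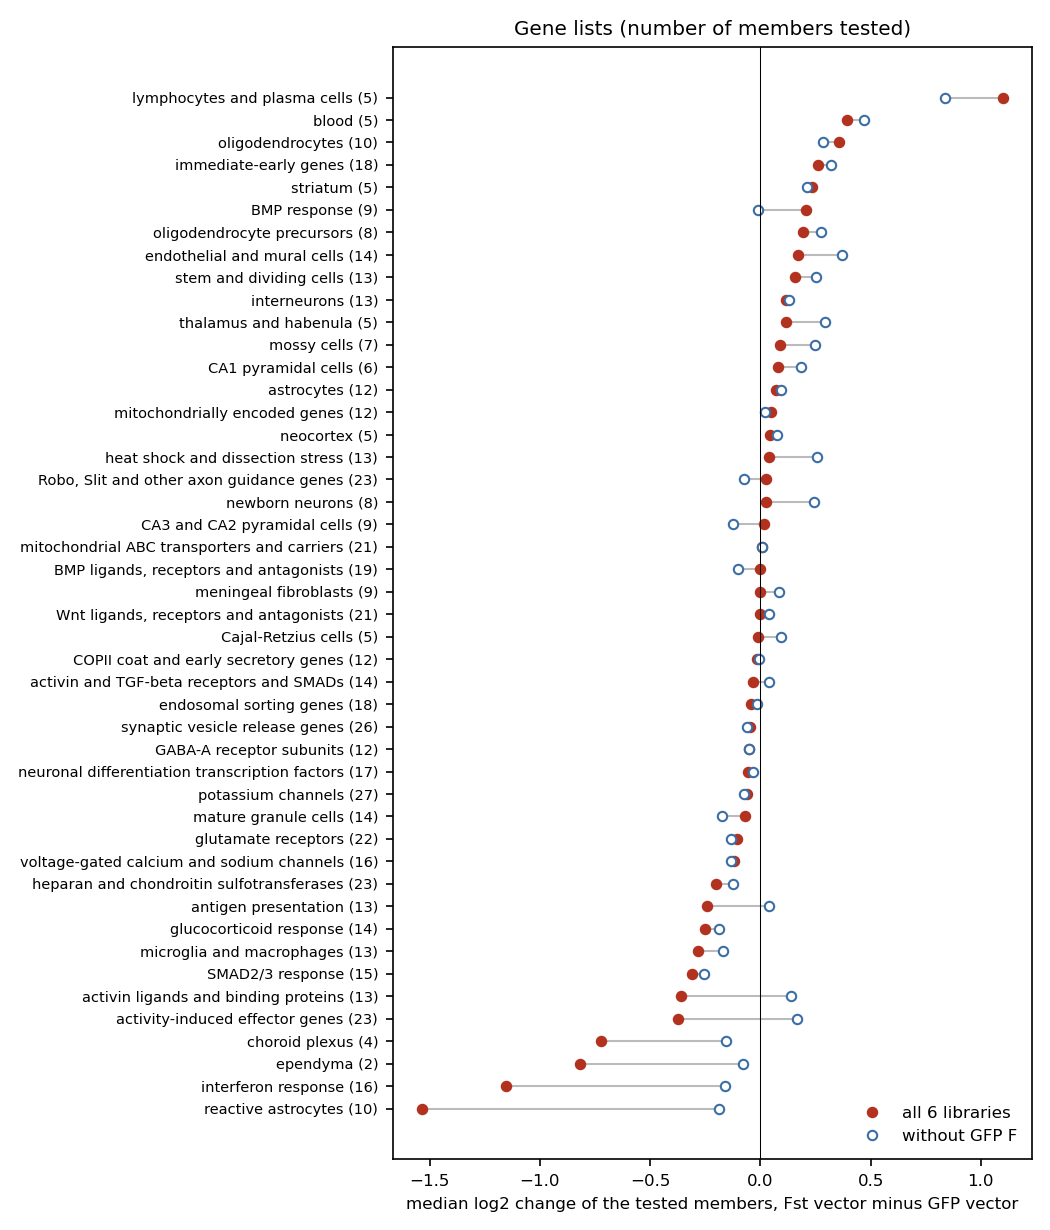
Median log2 change (horizontal axis, Fst vector minus GFP vector) of the tested members of each of 46 gene lists, with the number tested in brackets; red points use all 6 libraries and open blue points leave out GFP F. Reactive astrocytes and interferon response lie lowest with all libraries and near -0.2 without GFP F, while SMAD2/3 response moves from -0.31 to -0.26.

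Set beside WT and KO, the Fst vector group lay outside the range of the others for the 11 genes. For the 8 lower genes called without the block, all 3 Fst libraries lay below all 6 KO and WT libraries, and for the 3 higher genes all 3 lay above. Over all genes tested besides Fst the same held for 1416 and 2167 of 15033. Whether the vector, the table or the batch of libraries adds to these differences cannot be told apart, since the vector groups share a table of their own. Between WT and KO, edgeR called 0 of the 11 (1 had an unadjusted p under 0.05), where it called 0.0268% of all genes, 0.0201% higher and 0.00670% lower. The median size of the log2 change of the 11 was 0.0786 between WT and KO, close to the 0.0798 of all genes, and 1.39 between the vector groups. Those 11 were chosen by the vector comparison, so the last value is a description. In sign, 10 of the 11 went the same way from KO to WT as from GFP to Fst vector, all but Robo3. Over all genes tested in both, 7636 of 14575 did. Of the genes called with the block besides Fst, 103 of 139 did. At an unadjusted p under 0.05 by edgeR between WT and KO were 20 of these 139, beside 869 of all 14575. These shares were not tested.

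The difference between the change from GFP to Fst vector and that from KO to WT was tested by fitting the 12 libraries together. Here 17 of 15632 genes were called, 0.109% in all, 5 higher (0.0320%) and 12 lower (0.0768%). Among them were Fst, the 11 genes above, Syt13, Spsb1, Cnih3 and Wnk4. The choice of the 11 used the same libraries, so their calls are not independent support. Robo3 had a difference of 1.74 ± 0.17 (edgeR adjusted p = 4.45e-04), from 1.66 ± 0.16 between the vectors and -0.08 ± 0.07 between WT and KO. Sec24d had -1.74 ± 0.20 (0.00126) and Nrip2 -1.79 ± 0.18 (4.45e-04). Among the SMAD targets, Skil had -2.11 ± 0.39 (0.0907) and Klf10 -2.09 ± 0.54 (0.248), neither called. Fst itself had 8.18 ± 0.84 (4.45e-04): its log2 change was 3.71 ± 0.42 between WT and KO and 11.90 ± 0.33 between the vectors, the latter resting on 1 count in the GFP group.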

How the data were processed

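RNA was measured in 12 dentate gyrus libraries, of which the 6 of the vector groups enter the main comparison. The authors deposited raw counts per Ensembl gene in 2 tables of 52636 genes, per the file headers, 1 for the vector groups and 1 for WT and KO, and rows with no gene ID (12 and 6, holding 0 counts) were left out. Per the submitters' processing notes, reads were placed on GRCm38. Which aligner, counter and strand setting were used is not given in the sources. Coordinates and symbols come from GENCODE M21, which held 52489 of the gene IDs. A library of 8081824 to 10481922 counts puts 3 counts at 0.286 to 0.371 CPM.

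Genes passing filterByExpr were scaled by TMM and tested with edgeR 4.0.16 in R 4.3.3 by the robust quasi-likelihood test, on the 6 libraries alone, with Benjamini-Hochberg adjustment over all genes tested and a call at an adjusted p under 0.05. CPM values are per library total. SE is the size of the log2 change over the square root of F. Replicates differed by more than sampling noise (chi-square per degree of freedom 9.498 to 33.59). Deviations from the group means correlated at 0.3251 (M1), 0.1376 (M2) and 0.3896 (F) between libraries of the same name, all over 0.1, so the names were taken to pair the libraries and a fit with the replicate block was made; GFP M1 and Fst M2 reached 0.1193 too. Alternatives were DESeq2 1.42.0, RLE factors, library totals, other filters, sex or ribosomal RNA share as a term, no robust estimation, all 12 libraries, the M libraries alone and leaving out each library.

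Members and gene lists were chosen with earlier results of these data known. Genes named are Fst, those called without the block, the 12 of smallest p in each direction with it, and from each of 46 lists the 3 of smallest p plus those called with the block. Named after their values were seen are Inhba, Inhbb, Acvr2a, Smad2, Smad3, Smad4, Pmepa1, Ldlrad4, Tsc22d1, Smurf1, Bhlhe40, Id1, Fos, Arc, Egr1, Bdnf, Penk, Gfap, Prox1, Calb1, Oasl2, Cnih3, Syt13, Spsb1, Wnk4, Chst2, Chst8, Chst10, and the relatives of Robo3, Sec24d and Vps37b. The result for 1 gene is not reported here.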

Additional observations from a re-analysis of the deposited data

Results flagged for a closer look

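For 17 genes, of which 16 are given here, the change from GFP to Fst vector differed from the change from KO to WT by edgeR's quasi-likelihood test of the difference in all 12 libraries. The difference was 8.18 on the log2 scale for Fst, 1.74 for Robo3, 0.924 for Sept4, 2.03 for Trmt9b and 1.05 for Wnk4, a kinase that regulates ion transport. It was -1.79 for Nrip2, -1.74 for Sec24d, -1.06 for Ripor2, -1.2 for Hs6st1, -1.83 for Abcb10, -1.04 for Chst15, -1.22 for Vps37b and -1.03 for Slc25a42. It was -0.885 for Syt13, -1.2 for Spsb1, an adaptor of a ubiquitin ligase, and -1.94 for Cnih3. Cnih3 stood at 90.6 to 118 CPM over KO and WT and at 55.3, 29.9 and 29.4 in Fst M1, M2 and F. The tables of the 2 comparisons were deposited separately. For levels set side by side across them, a shift between the tables cannot be told apart from a vector effect shared by both vector groups. A log2 shift common to both groups of a table drops out of the difference, since each change is taken within its table.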

How the results depend on the processing

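The count of genes called between the vector groups, 12 as reported, was 250 by DESeq2, 230 with no filter on low counts, 141 with the replicate block, 132 with sex as a term, 412 in the fit of all 12 libraries, 27 on the M libraries alone and 4 with the ribosomal RNA share as a term. Leaving out 1 library gave 1 to 29. The count for the difference of effects, 17 as reported, was 144 by DESeq2, 127 with no filter, 10 with a mean CPM of at least 1, 42 with sex as a term, 163 with the replicate block and 4 to 58 with 1 library left out. For WT and KO, sex and block follow the titles, which the descriptions contradict for F1 and M2. Apart from those given beside the results, the block lost no call: all 12 genes stayed called. Scaled by library totals, 56.8% of the genes with an unadjusted p under 0.05 were higher, against 45.7% with TMM. Over 159 named genes and 2703 pairs of gene and alternative, 2415 kept direction and side of the threshold, 66 lost and 211 gained a call, and 11 in 6 genes changed sign. With 1 library left out, Hspb1 ranged from -3.11 to 0.83, Rarres2 from -0.67 to 0.53, Cacna2d2 from -1.40 to 0.092 and Col1a2 from -1.89 to 0.086, each positive without GFP F. The range was -0.0038 (without Fst M1) to 0.32 for mt-Atp6 and -0.19 to 0.058 for Tle4. Hspb1 and Rarres2 were at 0.87 and 0.54 on the M libraries alone, and Tle4 at 0.00532 by library totals. The cause was not tested. A level below 0.286 to 0.371 CPM rests on fewer than 3 counts. Fst lay there in the GFP group and was still called. The smallest change detectable at this depth was not tested.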

Other observations

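Some gene groups not described above leaned one way without passing. Of 14 glucocorticoid response genes 4 were higher and 10 lower in the Fst vector group, with a median log2 change of -0.25 (-0.19 without GFP F), and the groups of 4 were apart, all lower, beside 7.75% of all genes; by library totals it was 2, beside 6.01%. Of 14 endothelial and mural cell genes 11 were higher, with a median of 0.17 (0.37 without GFP F). By edgeR 0 of either list were called with or without the block, and DESeq2 called 0. With an unadjusted p under 0.05 there were 3 lower glucocorticoid response genes and 1 higher endothelial gene, beside 5.16% lower and 4.34% higher of all genes.

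Summed levels of the reactive astrocyte list were higher in all 6 vector libraries (726, 1925 and 6204 CPM in GFP M1, M2 and F, 759, 781 and 1231 in Fst M1, M2 and F) than in any KO or WT library (491 to 583). The oligodendrocyte list did the same, and the activity-induced list was above the KO and WT range (1556 to 1719.7) in all vector libraries, GFP M1 by a narrow margin. These are levels across tables deposited separately, and the part of the virus in them cannot be told apart from that of the table.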
